A study of Homo sapiens with 30 samples.

Results

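The genes described here are 8 keratins that mark the upper layers of stratified epithelium or respond to injury: KRT1, KRT4, KRT6A, KRT6B, KRT10, KRT13, KRT16 and KRT80. They were taken by name from the 26255 genes of the deposited expression table, and 7 of them are among the 12670 genes that reached an FPKM (fragments scaled to transcript length and to library size) of at least 1 in any line. The 8 genes were chosen by their FPKM values in the same 4 lines, so the levels and ratios given for them are a description and carry no test. The peaks around them come from other assays and were not used to choose them.

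RNA-seq was conducted in 4 lines of RWPE1, an immortalized normal human prostate epithelial line grown in serum-free keratinocyte medium. RWPE1-vector carried an empty vector, RWPE1-ERG carried ERG (an ETS family transcription factor that is often overexpressed in prostate cancer through gene fusion), RWPE1-mAKT carried myristoylated AKT (a membrane-anchored AKT that is constitutively active), and RWPE1-ERG/mAKT carried both. The ERG and mAKT constructs were stably expressed from introduced vectors rather than from the cells' own promoters, in lines of the same parent. Each line had 3 RNA-seq libraries, which the deposited table holds only as the authors' pooled FPKM, with no replicate values, so no FPKM below has an SD or a p-value. ATAC-seq lists of open chromatin were used for the ERG, mAKT and ERG/mAKT lines. ChIP-seq lists of ERG were used for RWPE1-ERG/mAKT and for VCaP, a prostate cancer line that makes ERG from its own gene fusion. By the paper's methods, the VCaP cells of this list had been treated with DMSO as vehicle. Lists of the histone mark H3K27me3 were used for the vector line, RWPE1-ERG and a line with ERG S96E, a phospho-mutant of ERG, and lists of ERK2, a kinase of the Ras/ERK pathway, for the vector and ERG lines. Each list came from 1 library, and the ChIP libraries were pooled from independent ChIPs.

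Keratins are the intermediate filament proteins of epithelial cells and assemble as pairs of an acidic type I and a basic type II protein. Basal cells of stratified and pseudostratified epithelia, including the basal layer of prostate, make KRT5 with KRT14, and simple or luminal cells make KRT8 with KRT18. Cells that leave the basal layer replace the basal pair with another that depends on the tissue, KRT1 with KRT10 in cornified epidermis and KRT4 with KRT13 in the mucosa of mouth and esophagus. KRT6A, KRT6B and KRT16 are scarce in resting interfollicular epidermis and appear in wounds, in hyperproliferative skin and in cultured keratinocytes, and KRT80 is a type II keratin found where filaments meet the desmosomes and cell margin.

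The introduced genes were read first as a check of the labels. ERG was 0.264, 358, 0.435 and 328 FPKM in the vector, ERG, mAKT and ERG/mAKT lines, and AKT1, whose reads may include those of an introduced AKT, was 58.7, 64.2, 156 and 281 FPKM in the same order. All 6 epithelial genes and all 4 simple keratins listed for the check were above 1 FPKM in every line. Of 6 fibroblast genes only COL1A1 passed 1 FPKM, at 1.78 to 2.18, and COL3A1 was listed at 0 in all lines. The 4 endothelial genes summed to between 0.0215 and 0.299 FPKM, and among 3 leukocyte genes only CD68, at 24.3 to 28.9 FPKM, passed 1 FPKM. The sum of FPKM over the table ran from 846000 to 1250000, and the median ratio of each line to the mean of the lines over expressed genes stayed between 0.965 and 1.03.

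KRT13 and KRT4, the mucosal suprabasal pair, were the members with the largest ratios of FPKM between lines. KRT13, the type I partner, was 4.10 FPKM in RWPE1-vector, 9.76 in RWPE1-ERG, 111 in RWPE1-mAKT and 148 in RWPE1-ERG/mAKT. Both lines with mAKT thus stood far above both lines without it, and the highest line exceeded the lowest by 36.2-fold. The log2 ratio of KRT13 for mAKT was 4.76 without ERG, which only 1 of 12151 genes exceeded, and 3.93 with ERG, while for ERG it was 1.25 without mAKT and 0.42 with it. KRT4, the type II partner, was 0.266 FPKM in RWPE1-vector, 0.107 in RWPE1-ERG, 3.48 in RWPE1-mAKT and 2.45 in RWPE1-ERG/mAKT. Both mAKT lines again lay above both lines without it, by 13.1-fold without ERG and 22.9-fold with ERG, but its level stayed far below that of its partner. On the log2(FPKM + 1) scale, which damps ratios of low values, the KRT4 log2 ratios were 1.82 without ERG and 1.64 with ERG in place of 3.71 and 4.52, so the order of these ratios turned. KRT4 passed the minimum of 1 FPKM only through the mAKT lines, so in those comparisons it could not have been counted as lower with mAKT. With log2(FPKM + 1) the range of KRT4 over the lines was 2.02, against 3.42 for KRT16, so KRT4 then ranked below KRT16. FPKM is scaled to length, and on that scale KRT13 exceeded KRT4 by 15.4-fold in RWPE1-vector, 91.1-fold in RWPE1-ERG, 31.8-fold in RWPE1-mAKT and 60.6-fold in RWPE1-ERG/mAKT. Even so KRT13 made up 1.89% of all type I keratin FPKM in RWPE1-ERG/mAKT, against 0.0561% in RWPE1-vector.

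**Figure D1:**
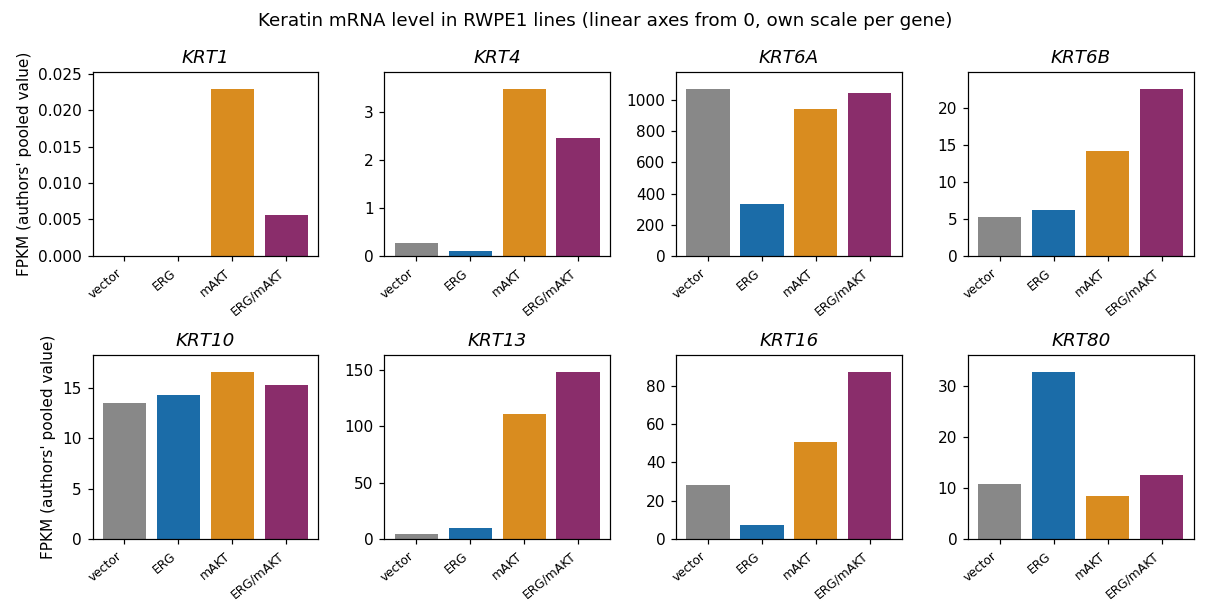
FPKM of each of the 8 keratins (vertical axis, linear from 0, a separate scale per gene) in the vector, ERG, mAKT and ERG/mAKT lines, with bars for the authors' pooled values and no error bars because no replicate values were given. KRT13 and KRT4 were highest in the mAKT lines, KRT6A and KRT16 were lowest in RWPE1-ERG, KRT80 was highest in RWPE1-ERG at 32.8, and KRT10 stayed between 13.5 and 16.6.

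The stress keratins KRT6A and KRT16 were lowest in RWPE1-ERG. KRT6A, the most abundant member, was 1075 FPKM in RWPE1-vector, 331 in RWPE1-ERG, 946 in RWPE1-mAKT and 1049.8 in RWPE1-ERG/mAKT. The vector, mAKT and ERG/mAKT lines lay close together, and RWPE1-ERG stood 3.25-fold below RWPE1-vector. KRT16, the type I keratin that pairs with KRT6, was 28.1, 7.25, 50.5 and 87.4 FPKM in the same order of lines. It was 3.88-fold lower in RWPE1-ERG than in RWPE1-vector, 3.59 higher on the log2 scale in RWPE1-ERG/mAKT than in RWPE1-ERG, and 1.73-fold higher in RWPE1-ERG/mAKT than in RWPE1-mAKT. The log2 ratio for ERG was thus -1.95 without mAKT and 0.79 with it, and for KRT6A it was -1.70 without mAKT and 0.15 with it. Because each line has 1 value, whether the ratio for ERG differs with mAKT was not tested. The level of KRT6A exceeded that of KRT16 by 38.2-fold in RWPE1-vector, 45.6-fold in RWPE1-ERG and 18.7-fold in RWPE1-mAKT, and by the least in RWPE1-ERG/mAKT.

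KRT6A followed the basal keratin KRT5 and KRT16 moved apart from the basal keratin KRT14. KRT5 was 3126, 1169.8, 3642 and 3519 FPKM over the 4 lines, and the ratio of KRT6A to KRT5 levels stayed between 0.260 and 0.344. KRT14 was 2936, 699.5, 2527 and 1185 FPKM, and the ratio of KRT16 to KRT14 levels was 0.00958, 0.0104, 0.0200 and 0.0738. KRT17, another keratin induced by injury that also marks basal cells, was 3105, 1768, 3262 and 4542 FPKM and was lowest in RWPE1-ERG as well. The simple keratin KRT8 was 622, 1769, 671 and 921 FPKM and was highest in RWPE1-ERG. The 8 members together held 7.78% of all keratin FPKM in RWPE1-vector, 3.08% in RWPE1-ERG, 7.78% in RWPE1-mAKT and 8.62% in RWPE1-ERG/mAKT, most of it KRT6A. The 6 epithelial genes listed for the check were KRT5, KRT14, TP63, ITGA6, CDH1 and EPCAM. They summed to 6320, 2090, 6450 and 4930 FPKM over the same lines. The 4 simple keratins summed to 4270, 8920, 4140 and 4660 FPKM. The sum of the 6 genes was thus lowest and that of the simple keratins highest in the line where KRT6A and KRT16 were lowest. Most of the sum of the 6 genes is the basal keratins KRT5 and KRT14, and not all 6 followed it. EPCAM was highest in RWPE1-ERG at 89.7 FPKM, CDH1 was lowest in RWPE1-vector at 33.7, and ITGA6 was lowest in RWPE1-ERG/mAKT at 67.2. The part of cell type in the keratin levels was not tested, and in bulk RNA fewer cells of a type cannot be told apart from less RNA per cell.

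KRT6B, a close copy of KRT6A, had another order of lines. It was 5.26 FPKM in RWPE1-vector, 6.15 in RWPE1-ERG, 14.2 in RWPE1-mAKT and 22.6 in RWPE1-ERG/mAKT. Both mAKT lines lay above both lines without mAKT, by 2.69-fold without ERG and 3.67-fold with ERG, and RWPE1-ERG was 1.17-fold above RWPE1-vector where KRT6A was lower. KRT6C, the third copy, which is not a member, was 0.349, 0.115, 2.90 and 4.15 FPKM. The reference transcripts of KRT6A and KRT6B are 93.3% identical over 2249 aligned bases, and 37.3% of the 50-base words of KRT6A also occur in KRT6B or KRT6C. For KRT6B that share is 46.4% and for KRT6C 53.0%. How reads that fit more than 1 of these genes were divided is not given in the sources used here, and KRT6A was 46.5 to 204 times as high as KRT6B, so the levels of KRT6B and KRT6C are uncertain and their part from KRT6A reads was not tested. KRT16 shares 11.9% of its 50-base words with KRT14 or KRT17, both of which were far more abundant, and its level is uncertain in the same way.

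KRT80 was the only one of the 8 that was highest in RWPE1-ERG. It was 10.8 FPKM in RWPE1-vector, 32.8 in RWPE1-ERG, 8.48 in RWPE1-mAKT and 12.6 in RWPE1-ERG/mAKT. RWPE1-ERG stood 3.03-fold above RWPE1-vector and 2.61-fold above RWPE1-ERG/mAKT, while RWPE1-ERG/mAKT was 1.48-fold above RWPE1-mAKT. The log2 ratio for mAKT was -0.35 without ERG and -1.38 with ERG, lower in both cases. In the reference annotation LINC00592 overlaps KRT80 on the other strand, and the strand of the libraries is not given in the sources used here.

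Of the epidermal suprabasal pair, KRT10 was expressed in every line and KRT1 was at or near 0. KRT10, the type I partner, was 13.5, 14.3, 16.6 and 15.3 FPKM in the 4 lines, a range of 1.23-fold. KRT1, its type II partner, was listed at 0 in RWPE1-vector and RWPE1-ERG, at 0.0230 FPKM in RWPE1-mAKT and at 0.00563 in RWPE1-ERG/mAKT, so no fold is given for it. KRT10 overlaps TMEM99 on the opposite strand and the table gives both the same locus. TMEM99 was 10.6, 11.1, 11.7 and 9.91 FPKM, and without a stated strand the reads of both genes cannot be told apart. The other cornified partners KRT2 and KRT9 reached no more than 0.00523 and 0.615 FPKM in any line.

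Set against all genes, the members were counted with a fold of 2 in genes at 1 FPKM or above in either line and above 0 in both. Because these ratios are what the members were chosen on, the background shares only give the scale. In RWPE1-ERG over RWPE1-vector, 2 of the 6 members compared were at least 2-fold higher (KRT13 and KRT80) and 2 were at least 2-fold lower (KRT6A and KRT16), where 4.78% of 12271 genes were higher and 1.59% lower. For RWPE1-mAKT over RWPE1-vector, 3 of 7 were higher (KRT4, KRT6B and KRT13) and 0 lower, where 1.04% of 12151 genes were higher and 0.996% lower. In RWPE1-ERG/mAKT over RWPE1-ERG, 5 of 7 were higher (KRT4, KRT6A, KRT6B, KRT13 and KRT16) and 1 lower (KRT80), where 2.65% of 12341 genes were higher and 3.57% lower. Between RWPE1-ERG/mAKT and RWPE1-mAKT, 0 of 7 were past 2-fold in either direction, where 2.65% of 12239 genes were higher and 0.94% lower. These last 7 log2 ratios ran from -0.51 for KRT4 to 0.79 for KRT16. KRT1 entered none of the counts. KRT4 passed the minimum only through the mAKT lines, so it could not have been counted as lower with mAKT. Among members at 1 FPKM or above in the second line, 2 of 6 were higher for mAKT over vector and 4 of 6 for ERG/mAKT over ERG. Of all genes at that level, 73 of 11958 and 181 of 12027 were higher. The comparisons share lines, so they are not independent of each other.

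**Figure D2:**
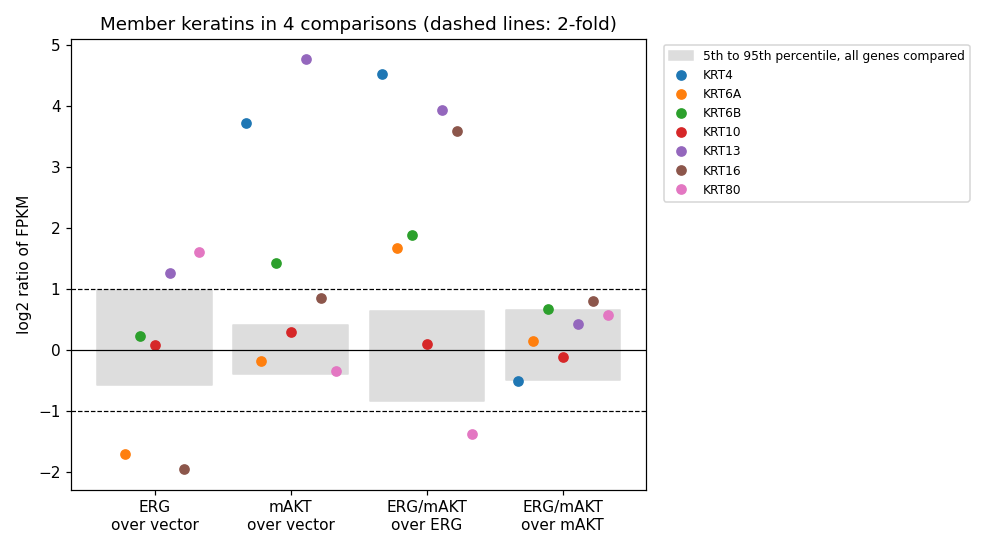
Log2 ratio of FPKM (vertical axis) for 7 members in the 4 comparisons (horizontal axis), with 1 point per gene, the grey band from the 5th to the 95th percentile of all genes compared, and dashed lines at 2-fold. KRT13 and KRT4 lie far above the band in both comparisons of mAKT, KRT6A and KRT16 lie below it for ERG over vector, and all points lie within 2-fold for ERG/mAKT over mAKT. KRT4 passed the minimum of 1 FPKM only through the mAKT lines.

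The median log2 ratio of the members compared was 0.15 for ERG over vector, 0.84 for mAKT over vector, 1.88 for ERG/mAKT over ERG and 0.42 for ERG/mAKT over mAKT. Without KRT4, which passed only through the mAKT lines, the medians for mAKT over vector and for ERG/mAKT over ERG were 0.57 and 1.77. Over all genes compared the medians were -0.01, 0.02, -0.05 and -0.08. The 0.15 for ERG over vector stands between ratios of opposite sign, from -1.95 to 1.60, and lies near only those of KRT10 (0.08) and KRT6B (0.22). The difference between the log2 ratio for mAKT with ERG and that without ERG was 2.75 for KRT16, 1.85 for KRT6A, 0.80 for KRT4, 0.45 for KRT6B, -0.20 for KRT10, -0.83 for KRT13 and -1.03 for KRT80. For KRT4 it turned to -0.18 with log2(FPKM + 1), so no direction is given for it. AKT1 was 2.67-fold higher with mAKT in the lines without ERG and 4.38-fold higher in those with ERG. In these differences the level of AKT1 and the presence of ERG cannot be told apart.

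Some genes of suprabasal differentiation other than keratins, mainly SPRR genes, were also higher in the mAKT lines. Of a list of 22 such genes (envelope proteins, cross-linking enzymes and desmosomal proteins), 14 could be compared in RWPE1-mAKT over RWPE1-vector. Of these, 9 were at least 2-fold higher and 0 were lower, where 1.04% of all genes compared were higher and 0.996% lower. The shares of all genes given above for each comparison apply to this list and to those that follow. Of the 9, 8 reached 1 FPKM only in RWPE1-mAKT (SPRR1A was just short of it in RWPE1-vector), so they had to be higher there to be compared. Among the 6 genes at 1 FPKM or above in RWPE1-vector only SPRR1B was past 2-fold, and their median log2 ratio was 0.30. Of all genes at that level in RWPE1-vector, 73 of 11958 were higher and 121 lower. SPRR1A and SPRR1B, small proline-rich precursors of the cornified envelope, were higher by 4.34 and 2.83 on the log2 scale. TGM1, the transglutaminase that cross-links the envelope, was 1.33-fold higher, and PPL, the desmosomal plakin periplakin, was 1.31-fold higher. In RWPE1-ERG/mAKT over RWPE1-ERG, 7 of 13 were higher and 0 lower, 5 of them reaching 1 FPKM only in RWPE1-ERG/mAKT. Among the 7 genes at 1 FPKM or above in RWPE1-ERG, SPRR1B and SPRR2D were past 2-fold and the median log2 ratio was 0.42. Of all genes at that level in RWPE1-ERG, 181 of 12027 were higher and 440 lower. SPRR2A was 156-fold higher (15.6 against 0.0997 FPKM), SPRR1A 92.2-fold, SPRR1B 50.4-fold and SPRR2D 5.73-fold. For ERG over vector 1 of 7 was higher, which reached 1 FPKM only in RWPE1-ERG, and 1 lower, the latter being SPRR1B at 4.36-fold lower, and PPL and EVPL (envoplakin) were 1.24-fold and 1.06-fold lower. Between RWPE1-ERG/mAKT and RWPE1-mAKT 5 of 15 were higher and 2 lower, 1 of the 5 (TMPRSS11E) reaching 1 FPKM only in RWPE1-ERG/mAKT. SPRR2A was 8.06-fold, SPRR2D 2.63-fold, SPRR1A 1.67-fold and SPRR1B 1.63-fold higher. LOR (loricrin) was listed at 0 in all lines and FLG (filaggrin) did not pass 0.0393 FPKM, while CNFN (cornifelin) was 2.69 to 4.21 FPKM and CDSN (corneodesmosin) 1.34 to 2.24 FPKM over the lines, so the late epidermal genes were not all near 0.

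Among 18 regulators of stratified epithelium, 8 of the 16 compared were at least 2-fold higher in RWPE1-ERG/mAKT than in RWPE1-ERG and 0 were lower. Of all genes compared, 2.65% were higher and 3.57% lower. Of the 8, 5 reached 1 FPKM only in RWPE1-ERG/mAKT, and the other 3, out of 11 at 1 FPKM or above in RWPE1-ERG, were NOTCH3, GRHL1 and KLF4. Among all genes at that level in RWPE1-ERG, 181 of 12027 were higher. NOTCH3, a receptor of the Notch pathway that promotes exit from the basal layer, was 8.66-fold higher, GRHL1, a grainyhead-like transcription factor of barrier genes, 5.12-fold, KLF4, a Krüppel-like factor of differentiating layers, 3.27-fold, and TP63, the master factor of basal epithelium, 1.78-fold. In RWPE1-mAKT over RWPE1-vector 1 of 13 was higher, NOTCH3 at 2.47-fold, and TFAP2C, GRHL2 and NOTCH1 were 1.78-fold, 1.49-fold and 1.24-fold higher. For ERG over vector 0 of 12 were higher and 2 lower, NOTCH3 at 2.08-fold and CEBPA at 2.0-fold. Short of 2-fold, KLF4, TP63 and KLF5 were 1.75-fold, 1.70-fold and 1.66-fold lower while HES1, a target of Notch, was 1.49-fold higher. In RWPE1-ERG/mAKT over RWPE1-mAKT 4 of 16 were higher and 0 lower, 3 of the 4 reaching 1 FPKM only in RWPE1-ERG/mAKT, with KLF4, GRHL1, NOTCH3 and HES1 between 1.68-fold and 1.83-fold higher.

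Genes that accompany the stress keratins in wounded or inflamed epithelium were less uniform. Of 18 listed, 4 of 14 were at least 2-fold higher and 2 lower in RWPE1-ERG/mAKT than in RWPE1-ERG, where 2.65% of all genes were higher and 3.57% lower. All 4 were at 1 FPKM or above in RWPE1-ERG. S100A8 and S100A9, the subunits of calprotectin, were higher by 6.42 and 4.17 on the log2 scale, LCN2, the siderophore-binding lipocalin, was 5.29-fold higher, and IL1B, the cytokine interleukin 1 beta, was 3.76-fold lower. For ERG over vector 3 of 13 were higher and 2 lower, 1 of the 3 (LCN2) reaching 1 FPKM only in RWPE1-ERG. IL1B was 3.60-fold, IL1A 2.03-fold and HBEGF 1.74-fold higher, and EREG, an EGF receptor ligand, was 2.12-fold lower. KRT6A and KRT16 were lowest in the line where IL1B was highest, at 168 FPKM. In RWPE1-mAKT over RWPE1-vector 3 of 14 were higher and 0 lower, 2 of the 3 reaching 1 FPKM only in RWPE1-mAKT, with S100A8 at 3.83-fold, S100A9 at 1.56-fold, PI3 (elafin, a protease inhibitor) at 1.33-fold and IL1A at 1.24-fold. In RWPE1-ERG/mAKT over RWPE1-mAKT 5 of 15 were higher and 0 lower, 1 of the 5 (S100A7) reaching 1 FPKM only in RWPE1-ERG/mAKT. The others were S100A9 at 13.4-fold, S100A8 at 9.83-fold, LCN2 at 5.72-fold and PI3 at 2.17-fold, whereas no member passed 2-fold.

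Of the 28 other epithelial keratins, 8 or 9 could be compared. In RWPE1-ERG over RWPE1-vector 4 of 8 were at least 2-fold higher and 2 lower, where 4.78% of all genes were higher and 1.59% lower. KRT8 was 2.84-fold and KRT19 2.61-fold higher, and KRT14 was 4.20-fold and KRT5 2.67-fold lower. For mAKT over vector 1 of 9 was higher, KRT6C, which reached 1 FPKM only in RWPE1-mAKT, and 0 were lower, and KRT15, a basal keratin next to KRT13 on chromosome 17, was 1.61-fold higher. KRT18 and KRT5 were 1.21-fold and 1.16-fold higher there, and KRT7 was 1.18-fold lower. In RWPE1-ERG/mAKT over RWPE1-ERG 4 of 9 were higher and 1 lower, 1 of the 4 (KRT6C) reaching 1 FPKM only in RWPE1-ERG/mAKT. KRT15 was 3.48-fold, KRT5 3.01-fold and KRT17 2.57-fold higher, and KRT7 was 2.05-fold lower. Between RWPE1-ERG/mAKT and RWPE1-mAKT KRT15 was 5.20-fold higher and KRT14 2.13-fold lower, and KRT19 and KRT17 were 1.61-fold and 1.39-fold higher.

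**Figure D3:**
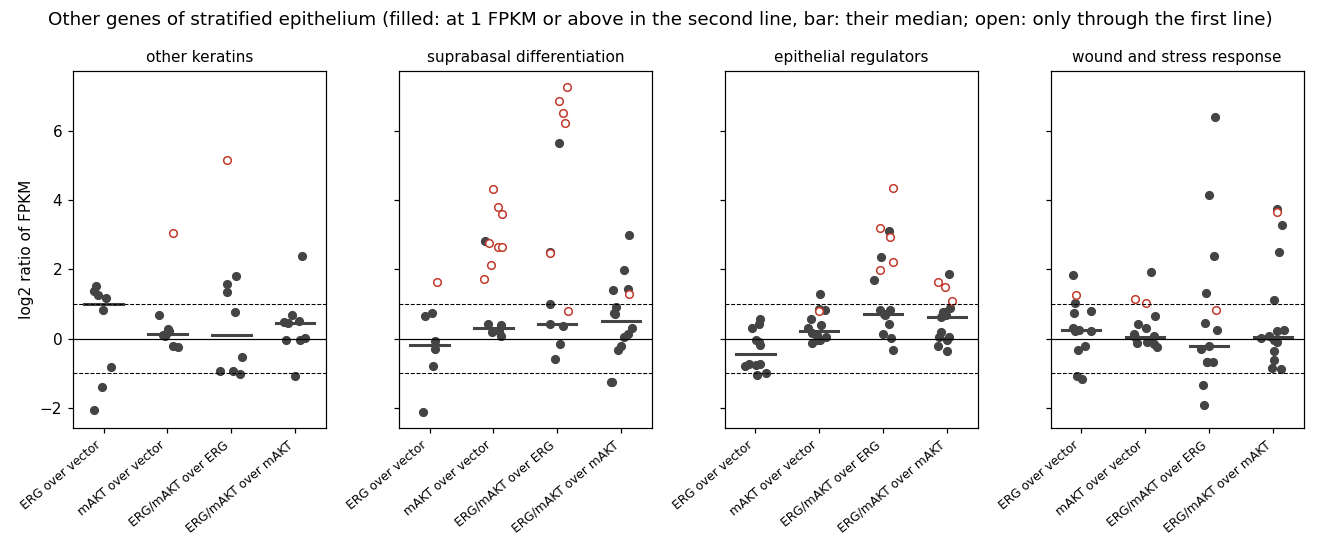
Log2 ratio of FPKM (vertical axis) of the genes compared in 4 lists (panels) for the 4 pairs of lines (horizontal axis), with 1 point per gene and dashed lines at 2-fold. Filled points were at 1 FPKM or above in the second line named, with a bar at their median, and open points reached 1 FPKM only in the first line. Of the 14 suprabasal differentiation genes compared in mAKT over vector, 8 are open points and all 8 lie above 2-fold, while the 6 filled points have a median of 0.30.

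Likeness of pattern over the 4 lines was measured as the Euclidean distance between log2(FPKM + 1) profiles centred on their own mean, among 12669 gene names. For the 4 members with the widest range, the nearest genes to KRT13 were MIR33B, MIR4691 and MIR4664 at distances of up to 1.01, and those to KRT16 were MIR330, MIR6720 and MIR635 at 0.384 to 0.536. These are microRNA genes, far shorter than the fragments of such libraries, and were listed at 0 in 1 or 2 lines. Without short RNA and histone genes, a choice made after these names were seen, SPRR1A, RAB26 and SPRR1B were nearest to KRT13 at 1.17 to 1.92, and AQP3, SERPINB13 and ALDH3A1 to KRT16 at 0.588 to 0.802. The nearest genes to KRT4 were OR51B5, GJB2 (a gap junction protein of keratinocytes) and SNORA79 at 0.290 to 0.323, and to KRT6B they were HCAR2, A2ML1 and GPX2 at 0.178 to 0.224. With 4 lines many genes share a pattern, and the distances are a description only.

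All 8 genes lie in the keratin clusters of chromosome 12 (type II) and chromosome 17 (type I), on the minus strand in the hg19 build. In the reference annotation KRT6A spans chr12:52880960-52887041, KRT6B chr12:52840435-52845930, KRT80 chr12:52562780-52585798, KRT1 chr12:53068520-53074191 and KRT4 chr12:53200333-53207900, each with 9 exons. KRT10 spans chr17:38974369-38978866, KRT13 chr17:39657233-39661864 and KRT16 chr17:39766030-39769019, each with 8 exons. The 20 kb windows reach into neighbouring genes, KRT6C for KRT6A and KRT6B, KRT15 for KRT13 and KRT17 for KRT16, so a peak in a window need not belong to the member.

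Open chromatin was found near every member. All 8 had an ATAC peak within 20 kb in each of the 3 lines, where 88.4% of all genes in the table did in RWPE1-ERG, 87.3% in RWPE1-mAKT and 83.1% in RWPE1-ERG/mAKT. The lists held 63354, 57999 and 42081 peaks, so counts of peaks are not compared between lines. The start of KRT6A was covered in all 3 lines, by chr12:52886886-52887377 in RWPE1-ERG at 5.75-fold enrichment, chr12:52886946-52888649 in RWPE1-mAKT at 4.15-fold and chr12:52886945-52887379 in RWPE1-ERG/mAKT at 4.50-fold. KRT6A thus had a peak at its start in the line where its mRNA was lowest. The start of KRT80 was covered in all 3 as well, at 11.1-fold in RWPE1-ERG, 8.53-fold in RWPE1-mAKT and 7.27-fold in RWPE1-ERG/mAKT. Since each line has 1 library, these differences between lines could not be tested.

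At KRT16 the start was covered by peaks of 4.69-fold in RWPE1-ERG and 3.42-fold in RWPE1-mAKT, and in RWPE1-ERG/mAKT the nearest peak ended 66 bases from it. At KRT6B a peak covered the start in RWPE1-mAKT (6.16-fold) and RWPE1-ERG/mAKT (4.65-fold) and lay 26 bases from it in RWPE1-ERG (6.51-fold), so all 3 lines had open chromatin there. KRT4 differed, with a peak over the start, chr12:53207895-53208413 at 4.98-fold, in the RWPE1-mAKT list and none nearer than 8215 bases in RWPE1-ERG and 14676 bases in RWPE1-ERG/mAKT. The KRT4 mRNA was 3.48 and 2.45 FPKM in the mAKT lines, so a listed peak at the start went with the mRNA in RWPE1-mAKT but not in RWPE1-ERG/mAKT, whose list is the shortest. No peak covered the start of KRT13, and the nearest were 869, 907 and 5218 bases away in the ERG, mAKT and ERG/mAKT lines. A peak just past the 3′ end of the gene was listed in all 3 lines, at 6.79-fold in RWPE1-ERG, 4.97-fold in RWPE1-mAKT and 7.66-fold in RWPE1-ERG/mAKT. No peak covered the start of KRT10, although it was expressed in all lines, and none covered that of KRT1.

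**Figure D4:**
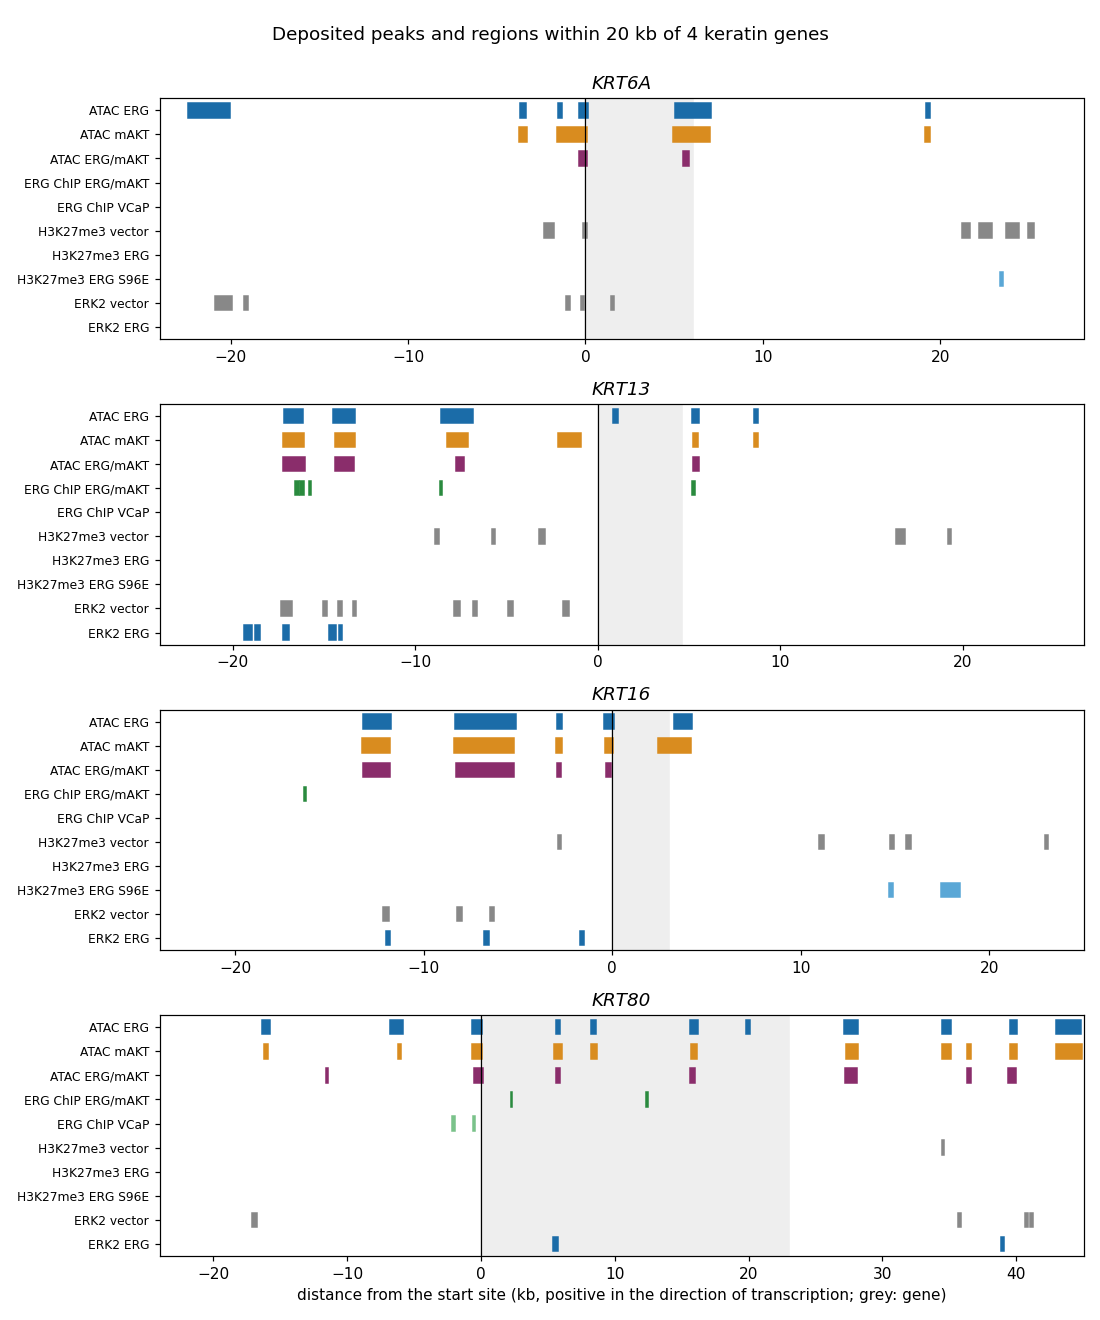
Peaks and regions (bars, drawn to scale along the horizontal axis in kb from the start site, grey for the gene) within 20 kb of KRT6A, KRT13, KRT16 and KRT80, with 1 row per deposited list. ATAC peaks sit at the starts of KRT6A and KRT80 in all 3 lines, and the 5 ERG peaks of RWPE1-ERG/mAKT near KRT13 lie 5197 to 16389 bases from its start.

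The ERG peaks listed near members all had q-values above 0.01. In RWPE1-ERG/mAKT 5 of 8 members had such a peak within 20 kb, where 30.2% of all genes did, and the 10 peaks had -log10 q-values of 0.155 to 0.686. A q-value of 0.01 was met by 450 of the 9113 peaks in the list, and the enrichments of the 10, 3.52-fold to 4.24-fold, lie near the list's median of 3.53-fold. KRT13 had 5 of the 10, at enrichments of 3.53-fold to 4.24-fold, and 4 of these lay 8554 to 16389 bases upstream of its start, towards KRT15 and KRT19. The fifth, chr17:39656525-39656667, lay past the 3′ end of the gene and overlapped the ATAC peak listed there in all 3 lines. KRT80 had 2 in introns, chr12:52583463-52583571 and chr12:52573330-52573438, KRT1 had chr12:53071477-53071585 over an exon, KRT6B had chr12:52834949-52835057, 10873 bases from its start, and KRT16 had chr17:39785265-39785373, 16246 bases upstream. KRT4, KRT6A and KRT10 had 0, so the most abundant member had no listed ERG peak within 20 kb. No ERG peak list of RWPE1-ERG was used here, and whether ERG lay at KRT6A or KRT16 in the line where they were lowest was not analysed here.

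The summit sequences are shown for the 3 ERG peaks near members whose summit window held the AP-1 letters. Each is a stretch of hg19 centred on the summit, with capitals for every GGAA or TTCC (the core of the ETS site that ERG binds) and every TGACTCA or TGAGTCA (the AP-1 site), both strands counted.
KRT13, past the 3′ end, chr17:39656513-39656621, plus strand: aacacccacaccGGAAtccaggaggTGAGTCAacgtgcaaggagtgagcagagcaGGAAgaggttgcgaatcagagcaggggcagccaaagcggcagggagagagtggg
KRT13, upstream, chr17:39678039-39678147, plus strand: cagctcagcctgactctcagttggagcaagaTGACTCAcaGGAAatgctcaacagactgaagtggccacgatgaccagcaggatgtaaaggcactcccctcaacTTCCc
KRT6B, past the 3′ end, chr12:52834984-52835092, plus strand: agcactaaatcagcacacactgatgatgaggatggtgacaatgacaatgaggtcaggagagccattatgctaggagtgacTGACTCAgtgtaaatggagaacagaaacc
GGAA was found in 6 of the 10 summit windows, against 69.8% of all 9113 windows of this length in the list. The AP-1 letters were found in the 3 windows shown and in 5.37% of all windows, and the KRT6B window held no GGAA. In the KRT6B window the AP-1 letters lie past the end of the called peak, chr12:52834949-52835057, and in the KRT13 windows they lie inside the peaks. The longer ETS sequence GGAAGTGA, which overlaps GGAA, was in 0 of the 10 and in 1.42% of all.

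In VCaP, 2 of 8 members had an ERG peak within 20 kb, where 21.3% of all genes did. KRT80 had chr12:52586226-52586400 at 3.61-fold, 428 bases upstream of its start and overlapping the ATAC peak that covered the start in all 3 RWPE1 lines, and chr12:52587716-52587938 at 3.26-fold. KRT6B had chr12:52844245-52844422 at 3.84-fold over an exon. None of the 3 passed a q-value of 0.01.

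ERK2 peaks were found near 6 of 8 members in RWPE1-vector, where 68.2% of all genes had a peak, and near 3 of 8 in RWPE1-ERG, where 24.2% did. The lists held 41276 and 5721 peaks, so the counts of members are not compared between these lines. The strongest lay 19925 bases upstream of KRT6A, towards KRT5, at chr12:52906966-52907913 with 7.29-fold enrichment and a -log10 q-value of 6.05 in RWPE1-vector. Another 4 near KRT6A in that line had 2.28-fold to 4.30-fold enrichment, with chr12:52887114-52887314 73 bases upstream of the start. KRT13 had 8 peaks in RWPE1-vector and 5 in RWPE1-ERG, and the strongest in each overlapped, chr17:39678602-39679216 at 5.54-fold and chr17:39678780-39679091 at 4.47-fold, both between KRT15 and KRT19. KRT16 had 3 in each line, 1 pair of which overlapped at chr17:39780883-39781183 and chr17:39780801-39781014. KRT80 had 4 and 2, with chr12:52580070-52580448 in an intron in RWPE1-ERG at 3.70-fold. KRT1 and KRT4 had 1 each in RWPE1-vector, at 3.08-fold and 3.42-fold, and KRT6B and KRT10 had 0 in both lines. Of the summit windows, 15 of 22 in RWPE1-vector and 9 of 10 in RWPE1-ERG held GGAA, against 64.9% and 69.7% of all windows in those lists, and 0 and 2 held the AP-1 letters, against 2.06% and 4.18%. The longer GGAAGTGA was in the window chr17:39676477-39676585 upstream of KRT13 in RWPE1-ERG, and in 0.822% of all windows in that list.

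H3K27me3, the mark that the polycomb enzyme EZH2 places at repressed genes, took up the largest shares at KRT1 and KRT4 in both ERG lines and at KRT6B in RWPE1-vector, and small ones at KRT13 and KRT80. Regions were listed within 20 kb of 8 of 8 members in RWPE1-vector, 4 of 8 in RWPE1-ERG and 6 of 8 in RWPE1-ERG S96E, where 95.9%, 72.6% and 77% of all genes had a region. The lists held 492265, 228233 and 252784 regions, most of them of low enrichment, and none near a member passed a q-value of 0.01. The share of the window covered is therefore given beside that of all genes. For KRT1, which was at or near 0, regions covered 12.5% of the gene with 20 kb to either side in RWPE1-vector, 18.6% in RWPE1-ERG and 46.9% in RWPE1-ERG S96E, where the median of all genes was 5.33%, 1.49% and 3.02%. Genes below 0.1 FPKM in the vector and ERG lines, like KRT1, had medians of 8.78%, 4.17% and 7.67%. Their 90th percentiles were 27.2%, 24.0% and 45.5%, so KRT1 lay within them in RWPE1-vector and RWPE1-ERG. KRT4, at 0.266 FPKM in RWPE1-vector and 0.107 in RWPE1-ERG, had 5.53%, 7.46% and 31.6%. No RNA-seq of RWPE1-ERG S96E was used here, so the mRNA of KRT1 and KRT4 in that line is not given. KRT13 had 3.17%, 0 and 0, KRT80 had 0.333%, 0 and 0, and KRT16 had 2.33%, 0 and 2.77%, all below the medians of all genes in every line. In RWPE1-ERG S96E, 4.40% of all genes had more of their window covered than KRT1 and 9.10% more than KRT4.

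KRT6A and KRT6B, whose windows share regions over KRT6C, had 6.58% and 22.2% of their windows covered in RWPE1-vector. In RWPE1-ERG these were 0 and 0.466%, and in RWPE1-ERG S96E 0.450% and 3.97%. KRT6A, like KRT13, KRT16 and KRT80, had no listed region in RWPE1-ERG, whose list was the shortest of the 3. The mRNA of KRT6A was 3.25-fold lower there than in RWPE1-vector, and the part of the mark in this was not tested. In RWPE1-vector a region of 183 bases, chr12:52886979-52887161 at 1.89-fold, was listed over the start of KRT6A. KRT10 had 6.51%, 2.02% and 6.55%. The strongest region near KRT10 was chr17:38954223-38954435 at 3.20-fold in RWPE1-vector. Over KRT1 itself 10.9%, 21.2% and 40.5% of the gene was covered, including the start in RWPE1-ERG S96E by chr12:53073067-53075055 at 2.30-fold, and over KRT4 2.71%, 3.49% and 42.7%. The 3 lists differ in depth, with 19444504, 16513053 and 26454542 reads in the ChIP and 15679418, 9675359 and 19065760 in the input, and the part of depth in these differences was not tested. No H3K27me3 list of a line with mAKT was used here, so the mark at KRT4 and KRT13 in the lines where they were high was not analysed here.

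**Figure D5:**
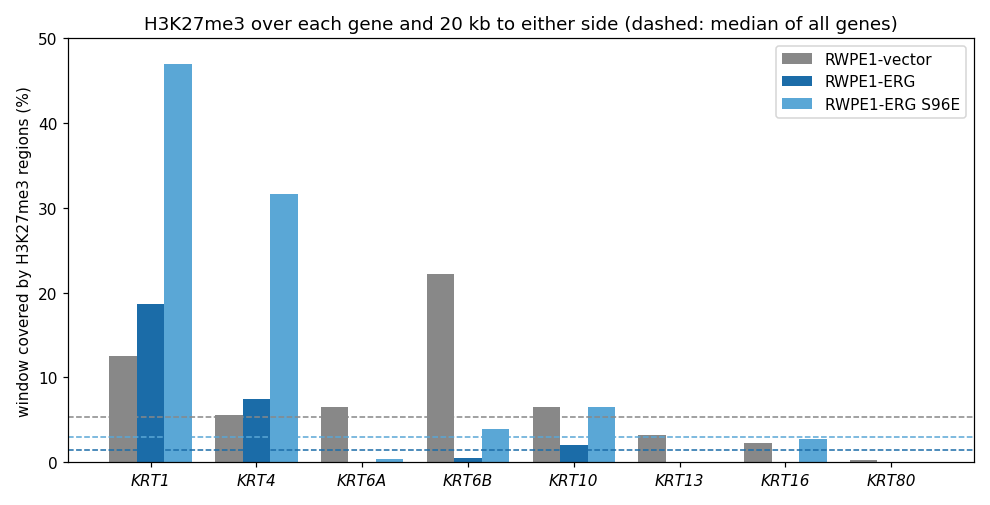
Percent of each gene with 20 kb to either side that is covered by H3K27me3 regions (vertical axis, from 0) for the 8 members in the vector, ERG and ERG S96E lines, with bars for 1 library each and dashed lines for the median of all 26255 genes in the same list. KRT1 and KRT4 stand above the median in all 3 lines and reach 46.9% and 31.6% in RWPE1-ERG S96E, and KRT13, KRT16 and KRT80 stay below it.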

How the data were processed

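All values are from deposited files. RNA-seq reads of polyA-selected RNA were aligned by the authors with TopHat2 to hg19, and the authors' Cuffdiff table gives a pooled FPKM per line and gene, with no column per library. Its log2 ratio, test statistic, p-value, q-value and significance columns hold the study's own comparisons and were not used. ChIP-seq and ATAC-seq peaks were called by the authors with MACS2, and the deposited lists give a pileup signal, a fold enrichment over background as a ratio, and −log10 p-values and q-values. ATAC-seq had no input. Of 12 lists, 2 hold content that their labels do not describe and were not used.

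From these, ratios were formed without a pseudocount between lines, for genes at 1 FPKM or above in either line and above 0 in both, and 2-fold was counted as different. Genes keep the table's locus, whose start was raised by 1 to count from 1, and a peak was near when it overlapped the locus extended by 20 kb. Sequences came from the GRCh37 (hg19) genome with the GENCODE annotation lifted to it (pysam 0.24.0), and transcripts were aligned with Biopython 1.88. Overlap and counting steps were tested on simulated data. The members and the 4 gene lists were chosen with earlier results of these data known. All members are named. In each list the text names up to 4 genes of largest absolute log2 ratio at 5 FPKM or above in the higher line, and for the 4 members of widest range the 3 genes of nearest pattern. Every ERG and ERK2 peak near a member is counted, with ranges where there are many, and ATAC and H3K27me3 peaks are named at starts and by enrichment. Other genes were named after their values were seen where they bear on a member. The promoter sequences of the members are not reported here.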

Additional observations from a re-analysis of the deposited data

Results flagged for a closer look

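The log2 ratio for ERG had opposite signs without and with mAKT for 3 members, each from pooled values in 1 line per arm, and the difference was not tested. For KRT16 it was -1.95 without mAKT and 0.79 with it, a difference of 2.75. For KRT6A it was -1.70 and 0.15, a difference of 1.85, and the ratio for mAKT was likewise -0.18 without ERG and 1.66 with it. For KRT10 it was 0.08 and -0.12, a difference of -0.20, both smaller than the 5th to 95th percentile band of all genes.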

How the results depend on the processing

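No paired analysis was possible because the expression values are pooled over replicates and each peak list is 1 library, and for the same reason no replicate could be left out. With no replicate spread, a log2 value was taken as unchanged when it moved by less than 1.5-fold. The counts of members past 2-fold were within 1.5 times under every alternative for the first 3 comparisons. For ERG/mAKT over mAKT the count of 0 became 2 at 1.5-fold and 1 with no minimum FPKM, which admits KRT1. Requiring 1 FPKM in the second line of a pair, an alternative added after the data were seen, left 1 of the 9 suprabasal differentiation genes counted as higher for mAKT over vector, 2 of 7 for ERG/mAKT over ERG, and 3 of 8 regulators there. The log2 ratios of KRT4 for mAKT, 3.71 and 4.52, became 1.82 and 1.64 with a pseudocount of 1. The difference in the mAKT ratio for KRT4, 0.80, became -0.18 with a pseudocount of 1, an alternative added after the data were seen, and no other difference changed sign. Rescaling the lines changed no count and no sign of a median.

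At a q-value of at most 0.01, 0 members kept an ERG peak in RWPE1-ERG/mAKT or VCaP, 2 kept an ERK2 peak in RWPE1-vector and 0 in RWPE1-ERG. Within 5 kb, 3 had an ERG peak in RWPE1-ERG/mAKT and 3 an ERK2 peak in RWPE1-vector. Within 50 kb, 4 had an ERG peak in VCaP and 7 an H3K27me3 region in RWPE1-ERG. Within 20 kb and at 2-fold enrichment or above, 2 had an H3K27me3 region in RWPE1-ERG, against 4 with no such limit. The shares of all genes were taken only within 20 kb and without these limits. The alternative counts therefore have no background beside them and show only how the main counts moved. The counts for ATAC were within 1.5 times of the main ones under every alternative. Of the 21 genes nearest in pattern, 4 remained with a pseudocount of 0.1 and 11 without short RNA and histone genes.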
